A study of Salmo salar with 34 samples.

Results

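The midgut of Atlantic salmon was measured on 34 one-colour arrays, and 100 probes were chosen whose signal was lower at the high than at the low level of organic minerals (OM) in females and higher at the high than at the low level in males. They were selected on the measured signals of the OM fish from 10295 probes, out of 14841 in all, whose spot stood well above the local background on 25 or more of the 34 arrays. For each probe the high minus low difference of the mean log2 signal was computed in OM females and in OM males. The probes were ranked by the smaller of the fall in females and the rise in males, and the first 100 were kept. The values of OM fish therefore chose the members, and they are given as a description with no test. The fish fed inorganic minerals (IM) played no part in the ranking and were tested, but their 14 arrays counted in the filter on background. The test also took its estimate of spread from all 34 arrays, OM fish included.

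The fish were post-smolts held in sea water and sampled after 12 weeks on diets that differed in the source and the level of a premix of copper, iron, manganese, selenium and zinc. By the paper, fish of all diets had also been put through weekly handling stress in the trial and kept at lowered oxygen in its last weeks. The labels give 8 groups by level, source and sex. OM fish comprised 3 high and 6 low females and 6 high and 5 low males. IM fish comprised 4 high and 5 low females and 2 high and 3 low males. Each array held RNA of 1 fish. The arrays were on 7 slides scanned on 2 days. All 16 males were scanned on day 2. Slides 1 and 2 held females only and were scanned on day 1, and the other females were scanned on day 2. A difference between the sexes therefore cannot be fully told apart from one between scan days or slides. The labels do not say which of the trial's dietary levels are meant by high and low, nor which tank each fish came from, so every fish entered as independent and p-values measure the spread between fish only. By the paper, each diet went to replicate tanks and midgut was taken from several fish per tank. Fish of a diet therefore shared tanks, and the p-values leave the spread between tanks out and may be too small. RNA came from whole midgut tissue, where fewer cells of a type and less RNA per cell cannot be told apart.

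Trace minerals are taken up across the epithelium of the fish intestine, where they serve as cofactors of enzymes. Copper, iron, manganese and zinc enter cells through membrane transporters and are bound by storage proteins and metallothioneins, and selenium is built into selenoproteins that act in the defence against oxidation. In an organic premix the metals are bound to organic molecules such as amino acids or peptides, and in an inorganic premix they are given as simple salts. The array was designed for genes of salmon immunity and quality. Its identifiers carry a species prefix, Ssa for Atlantic salmon or Omy for rainbow trout, and 0 of the 14841 could be matched to the salmon gene table used here. The members are therefore named by probe, their functions are not given, and the tissue could not be checked against marker genes. Of the 100 members, 94 had the prefix Ssa and 6 the prefix Omy, against 93.0% and 7.01% of the ranked probes.

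All signals are given as log2 of the processed intensity minus the array's 75th percentile of it, so that 0 is a fairly bright spot and each unit is a doubling. The 75th percentile ran from 87.9 to 863 intensity units over the 34 arrays, and the number of probes well above background was between 8786 and 13682. The group median of the 75th percentile was 386 in low and 268 in high OM males. It was 174 in low and 190 in high OM females, and between 287 and 330 in the IM groups. The 75th percentile was under 100 on 4 arrays, those of high OM female 4, low OM female 3, low IM female 3 and low IM male 5. A further 4 arrays, described below with their values, had a dark centre.

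In OM females the high minus low difference of the members had a median of -1.24 and ran from -3.55 to -0.75, and in OM males the median was 1.27 with a range of 0.73 to 6.52. The median over all ranked probes was -0.024 in OM females and -0.026 in OM males. Signal fell in females and rose in males for 2631 of the 10295 probes, whatever the size, and the reverse held for 2579. The fall in females was the smaller of the pair of differences for 51 members and the rise in males for 49. At the edge of the list, the last member inside, Ssa#DY695469, had -0.92 in OM females and 0.73 in OM males, and the first probe outside, Ssa#S22713494, had -1.14 in OM females and 0.73 in OM males. The smaller difference was 0.738 and 0.732 for the last pair inside and 0.727 and 0.725 for the first pair outside, so the list ends within a continuous range.

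**Figure D1:**
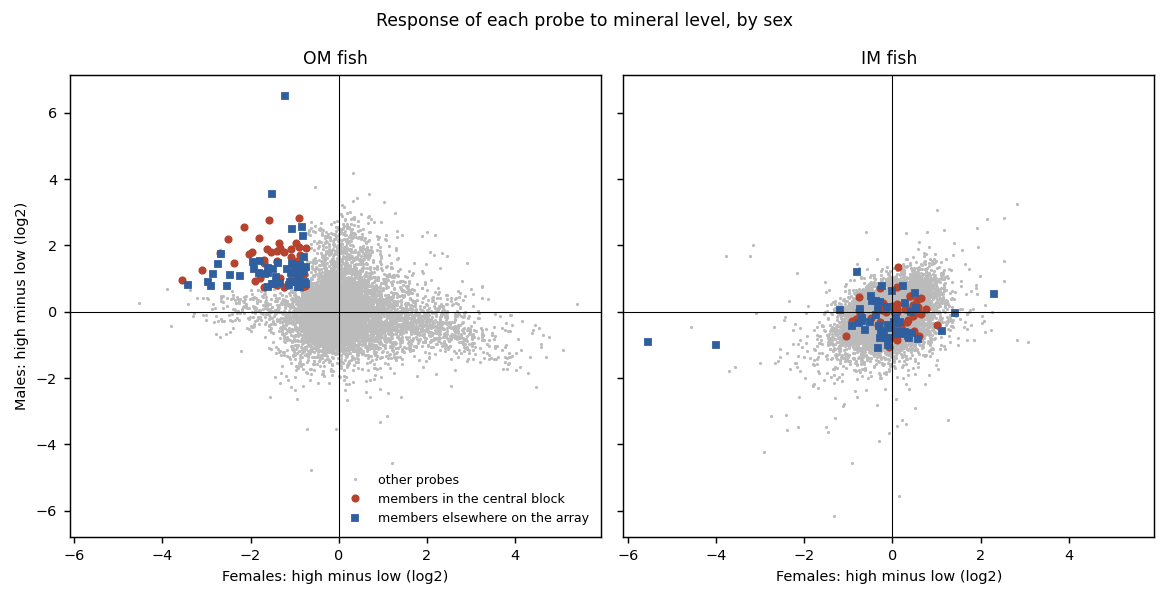
Each point is a probe, with the high minus low difference of its mean log2 signal in females on the horizontal axis and in males on the vertical axis, for OM fish on the left and IM fish on the right. Grey points are the other ranked probes, red circles the 49 members in the central block of the array and blue squares the 51 members elsewhere. In OM fish the rule places all members at the upper left. In IM fish they lie around the origin, with a median of 0.014 in females and -0.16 in males.

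The level of the members in a fish was summarised as the median, over the 100 probes, of the log2 signal minus the probe's median over all 34 fish. Among high OM females it was -0.85 in fish 3, -2.53 in fish 4 and -0.14 in fish 5, and among the 6 low OM females it ran from -0.17 to 0.65 with a median of 0.10. The lowest value of the series was thus that of high OM female 4, while high OM female 5 lay inside the range of the low OM females. Among the 6 high OM males it ran from 0.038 to 0.83 with a median of 0.57. Among low OM males it was -1.35 in fish 2, -0.87 in fish 3, 1.12 in fish 4, -0.82 in fish 5 and -1.11 in fish 6. Low OM male 4 had the highest value of all 34 fish and the other 4 low OM males lay below every high OM male, so the groups overlapped through 1 fish.

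**Figure D2:**
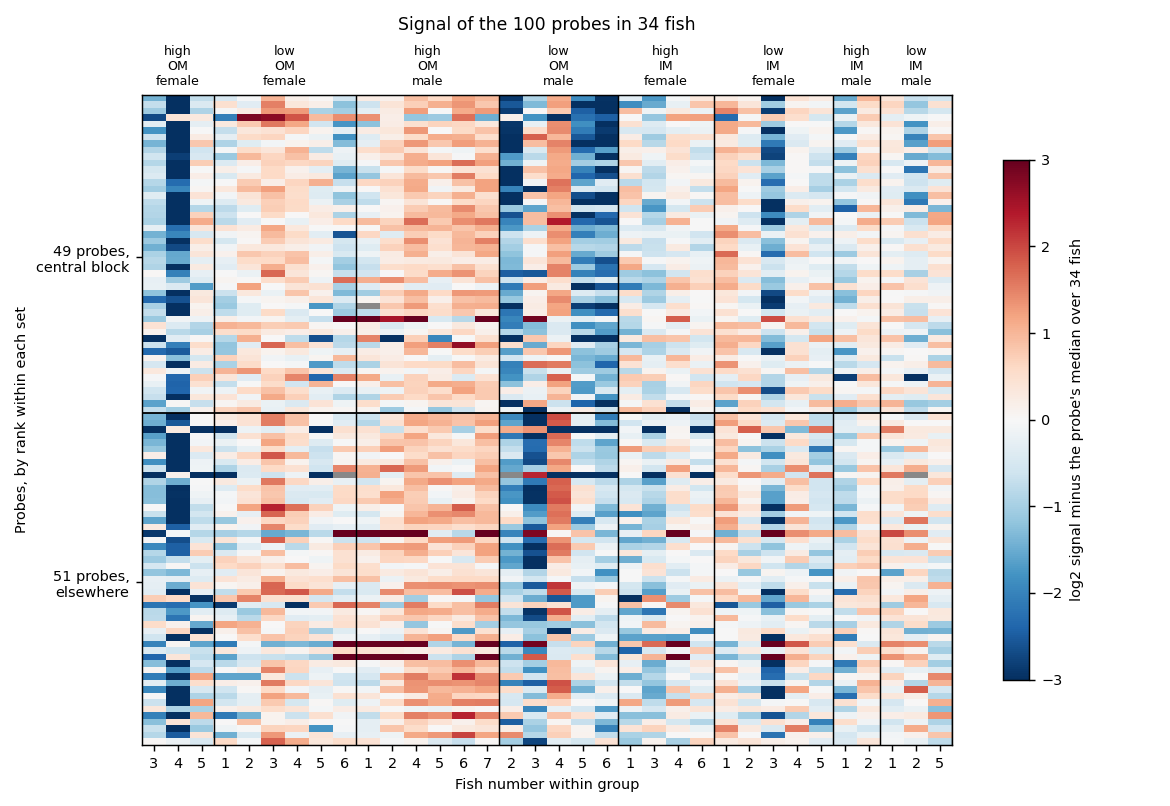
Rows are the 100 members and columns the 34 fish, in their 8 groups. Colour gives the log2 signal minus the probe's median over all fish, cut at -3 and 3, and grey marks a missing value. The upper 49 rows are members in the central block of the array and the lower 51 rows members elsewhere. High OM female 4 is blue in both sets. Low OM males 2, 5 and 6 are blue mainly in the upper set and low OM male 3 mainly in the lower set.

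High OM female 4 was the lowest fish of its group for 77 of the 100 members. On its array 40 members were not well above the background, against 7.91% of all ranked probes, and 31 members had a processed signal under 3 intensity units. The rule used this fish, so nothing is read from these counts. Measured against the mean of the low OM females, the median member difference was -0.99 in high OM female 3, -2.63 in high OM female 4 and -0.40 in high OM female 5. These differences were below 0 for 97, 90 and 67 members. Without high OM female 4 the median difference in OM females became -0.77, 86 members stayed below 0, and the same rule chose 52 of the 100 members again. Under the normexp background correction, whose offset of 50 damps differences at all spots and most at dim ones, the median was -0.47. In the authors' own processed values it was -0.79.

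In OM males the mean of the high fish minus each low fish had a member median of 1.96 against low OM male 2, 1.27 against low OM male 3, -0.49 against low OM male 4, 1.46 against low OM male 5 and 1.66 against low OM male 6. Low OM male 4 was the highest of its group for 80 members. Without it the median difference in OM males was 1.70 and 78 members were chosen again. With any other single OM male left out, the median lay between 1.06 and 1.33 and between 80 and 95 members were chosen again.

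The members were not spread evenly over the array. The array has 192 rows and 82 columns of spots, and 49 of the 100 members lay in the central block of rows 49 to 144 and columns 28 to 54, which held 16.4% of the ranked probes. Of the first 10 members 9 lay there. The block was drawn after the signals had been seen by place, because that part of some arrays was dark. On the array of low OM male 2 the median signal of all ranked probes in the block was 1.25 below that of the probes elsewhere, and the same difference was -0.86 for low OM male 5 and -0.87 for low OM male 6. It was -0.52 for low IM male 2 and -0.31 for low OM female 6, and between -0.061 and 0.23 on the other 29 arrays. In the block 29.3% of the ranked probes of low OM male 2 lay more than 2 below their median over the 34 fish, against 0.720% of its probes elsewhere. The shares were 19.5% and 0.163% for low OM male 5 and 22.5% and 0.209% for low OM male 6. On the array of high OM female 4 they were 5.28% and 5.76%.

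**Figure D3:**
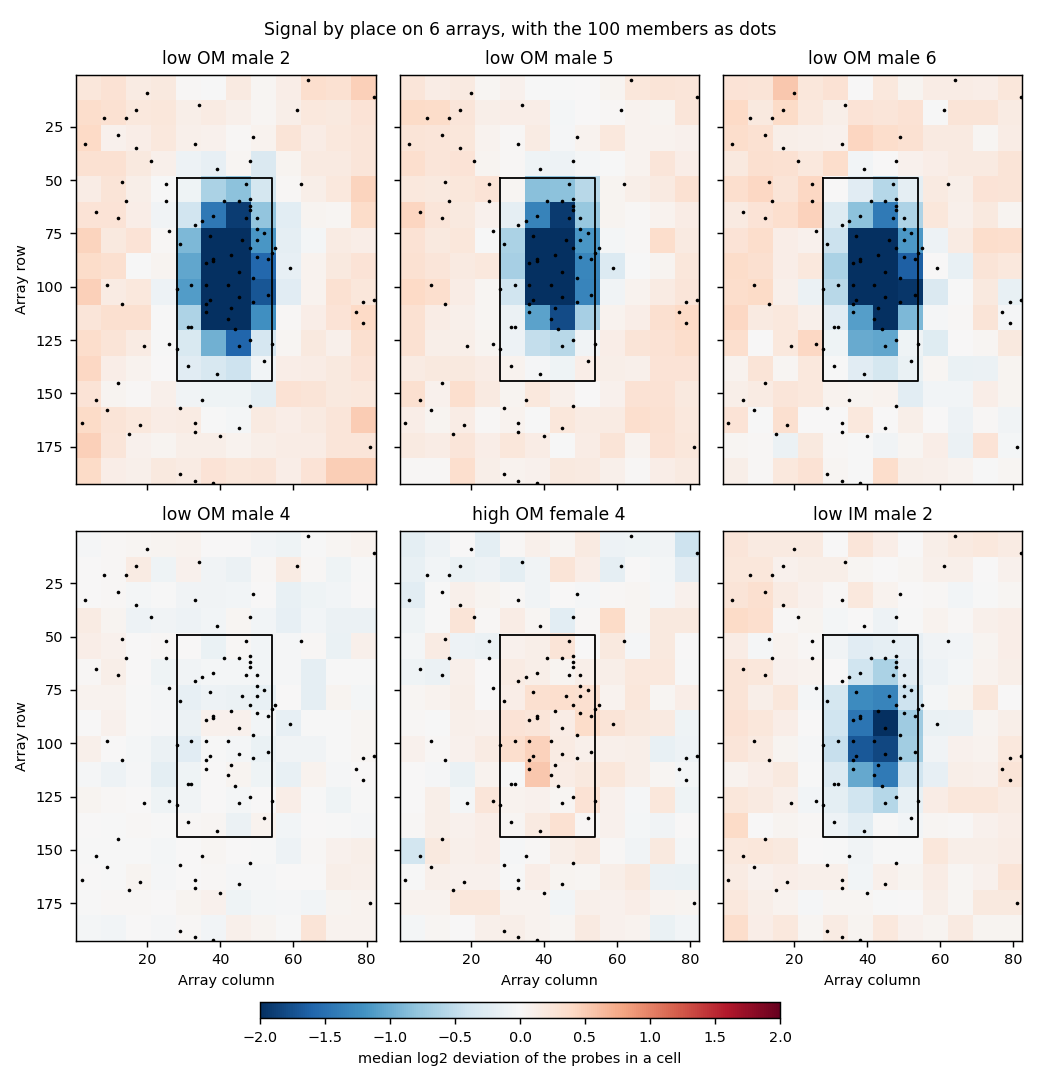
Each panel is 1 array, with rows of spots running down and columns across. Colour gives the median log2 deviation of the ranked probes in a cell from their medians over the 34 fish, dots the 100 members and the black frame the central block. Low OM males 2, 5 and 6 have a dark centre, and low IM male 2 a smaller one. Low OM male 4 and high OM female 4 have none.

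The dark centre was not particular to the members. Over the 1685 ranked probes in the block the median difference in OM males was 0.62, with 79.1% above 0, against -0.099 over the 8610 probes elsewhere. Of the 500 probes with the largest rise in OM males, 80.2% lay in the block, against 15.6% of the 500 with the largest fall in OM females. The 49 members in the block had a median difference of -1.33 in OM females and 1.48 in OM males, and the 51 members elsewhere had -1.17 in OM females and 1.16 in OM males. Without low OM males 2, 5 and 6, the difference in OM males was 0.017 in the block and 1.05 elsewhere. Only low OM males 3 and 4 then remained at the low level. Members outside the block lay at -1.82 in low OM male 3 and 0.97 in low OM male 4, so the 1.05 rested on low OM male 3. With these fish 76 of the 100 members stayed above 0, and the same rule chose 53 members again. Of the list the rule then gave, 12 probes lay in the block. In a separate check, each array's median deviation in each of 48 cells of an 8 by 6 grid was subtracted. The difference in OM males was 0.74 for the members in the block and 1.20 for those elsewhere, and 75 members were chosen again. The list the rule then gave had 32 probes in the block, which held 16.4% of the ranked probes. Over all ranked probes the median difference in OM males was then 0.042 in the block and -0.031 elsewhere. On the array of low OM male 2, neighbouring areas smaller than a grid cell had median deviations of -0.89 and -2.60. The correction may therefore have left part of the dark centre, and 0.74 and 75 are not read as free of it.

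Members outside the block were low in a different fish. Their median deviation was -1.82 in low OM male 3, against -0.027 for the members inside the block in the same fish. In low OM male 2 the members outside the block were at -0.87 and those inside at -1.95. In low OM male 5 the values were -0.31 outside and -1.70 inside, and in low OM male 6 they were -0.60 outside and -1.79 inside. Without low OM male 3, the median difference in OM males was 0.83 for the members outside the block and 1.63 for those inside. In low OM male 3, 5.41% of all ranked probes outside the block lay more than 2 below their median, and 5.58% of those inside it. The share outside the block was 5.76% in high OM female 4, the largest of the series. It was 4.26% in high IM female 1, the largest after these fish.

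**Figure D4:**
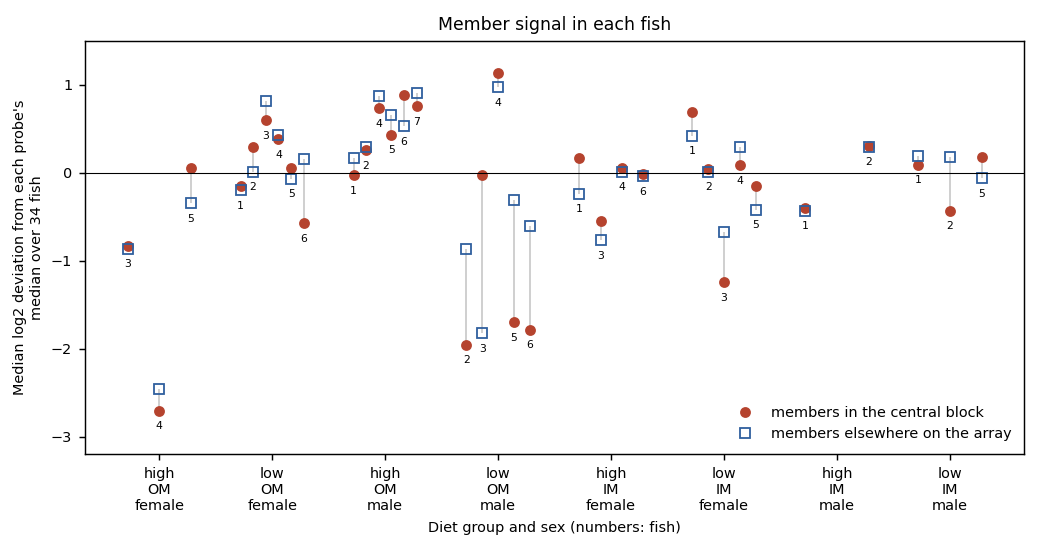
The vertical axis is the median log2 deviation of the members from their medians over the 34 fish, and each fish has 2 points, a red circle for the 49 members in the central block and a blue open square for the 51 elsewhere. Numbers are the fish. The points lie far apart in low OM males 2, 3, 5 and 6 and close together, at -2.70 and -2.45, in high OM female 4.

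The first-ranked member, Ssa#GRASP209730833, lay in the block at row 107 and column 49. In high OM females its log2 signal was -1.75 in fish 3, -5.66 in fish 4 and -1.07 in fish 5, and in low OM females it ran from -0.91 to 0.69 with a median of -0.34. All high OM females lay below all low OM females for this probe, but it was well above the background in only 2 of the 3 high OM females. In the 6 high OM males it ran from -0.20 to 0.85 with a median of 0.41, and in low OM males it was -3.22 in fish 2, -1.26 in fish 3, 0.79 in fish 4, -2.22 in fish 5 and -3.31 in fish 6. The differences were -2.51 in OM females and 2.18 in OM males. In IM fish its mean was -0.79 ± 0.89 (SD, n = 4) in high females and -1.31 ± 2.74 (SD, n = 5) in low females. The wide spread came from low IM female 3, which had -6.20 and was not well above the background.

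The fourth-ranked member, Omy#S18151049, also in the block, followed other fish. In high OM females its log2 signal was -5.43 in fish 3, -2.33 in fish 4 and -2.42 in fish 5, and in low OM females it ran from -4.78 to 0.11 with a median of -1.08. In high OM males it ran from -4.19 to -1.07 with a median of -3.16, and in low OM males it was -2.57 in fish 2, -4.52 in fish 3, -5.79 in fish 4, -4.95 in fish 5 and -5.18 in fish 6. Here low OM male 4, the highest fish for most members, was the lowest. Its residuals correlated with the mean of the other members at r = -0.13 in the 20 OM fish and -0.15 in the 14 IM fish.

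The remaining probes of the first 10 were Ssa#S19109157, Ssa#STIR44155, Ssa#TC101630, Ssa#S48406382, Ssa#GRASP223649437, Ssa#S35660727, Ssa#GRASP209733297 and Ssa#S35498642. Their differences ran from -2.69 for Ssa#TC101630 to -1.59 for Ssa#GRASP209733297 in OM females, and from 1.56 for Ssa#S35498642 to 2.76 for Ssa#GRASP209733297 in OM males. High OM female 4 was the lowest of its group for each of these 8 probes. For 4 of them, Ssa#S48406382, Ssa#S35660727, Ssa#GRASP209733297 and Ssa#S35498642, the value on that array was -6.47 and not well above the background, so the size of their fall rests on the lower end of the scanner's scale. Ssa#STIR44155, Ssa#TC101630 and Ssa#GRASP223649437 were likewise well above the background in only 2 of 3 high OM females. Their lowest values were -5.13, -5.41 and -5.16.

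All 3 high OM females lay below all 6 low OM females for 9 members, against 1.69% of all ranked probes, and all 6 high OM males lay above all 5 low OM males for 3 members, against 4.79%. Since the rule used these fish, nothing is read from the counts. Both held for 2 members, Ssa#S30279733 and Ssa#KSS5212, singled out after their values were seen, against 0.0874% of all ranked probes. For Ssa#KSS5212, which lay outside the block, the log2 signal was -1.79, -1.97 and -2.05 in high OM females and between -1.52 and -0.81 in low OM females. In high OM males it was between -1.21 and -0.92, and in low OM males -2.20, -3.31, -1.79, -1.84 and -2.20. In IM fish the same probe had -3.77, -1.85, -1.48 and -0.61 in high females and -1.77, -1.11, -1.62, -0.97 and -1.77 in low females, with overlap. In IM males it had -1.46 and -0.65 at the high level and -0.90, -1.29 and -2.40 at the low level, again with overlap.

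Slides that held both levels gave the differences within a slide. In OM females the member median was -2.33 on slide 2, which held 2 high fish, fish 4 among them, and 2 low fish. On slide 7, with 1 high and 1 low fish, it was -0.11. In OM males it was 0.70 on slide 5, with 2 high and 2 low fish including low OM males 3 and 4, and 1.83 on slide 6, with 1 high and 2 low fish, low OM males 5 and 6. The other slides held a single level in the given sex of OM fish.

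IM fish were tested, since the ranking did not use them, although the filter on background did. The members had a median high minus low difference of 0.014 in IM females, with 50 below 0 and 50 above, and -0.16 in IM males, with 39 above 0 and 61 below. Over all ranked probes 50.9% were below 0 in IM females and 48.5% above 0 in IM males. Of the members 19 were below 0 in IM females and above 0 in IM males, against 17.9% of all probes. The difference between the sexes, the response of females minus that of males, had a median of 0.21 in IM fish, against -2.71 in OM fish, where the rule fixed it. The median in IM females became -0.42 without low IM female 3, and in IM males it became 0.43 without high IM male 1, so single fish moved both. Within slides that held both levels, the median was -0.56, -0.10 and 0.32 in IM females on slides 1, 2 and 7, and -0.27 in IM males on slide 4. The 49 members in the block had a median of 0.11 in IM females and -0.012 in IM males, and the 51 members elsewhere had -0.10 in IM females and -0.33 in IM males. Low IM male 2, with its smaller dark centre, was 1 of the 3 low IM males, and over all 1685 ranked probes in the block the median in IM males was 0.24, with 66.2% above 0, against -0.060 and 45.1% over the 8610 elsewhere.

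The study's criteria for a differentially expressed gene were a fold change past a limit, 0.81 on the log2 scale, together with p under 0.05, here limma's before adjustment. By these, 4 of the 100 members differed between high and low IM females, against 6.88% of all ranked probes, 2 of them higher, against 2.17%, and 2 lower, against 4.71%. In IM males 0 members did, against 3.72%, and 0 had an unadjusted limma p under 0.05 at any fold, against 5.47% of all probes. The response differed between IM females and males for 1 member, against 1.12%. At a Benjamini-Hochberg adjusted limma p under 0.05, 0 members passed in IM females, 0 in IM males and 0 for the difference between them, and over all ranked probes 3 (0.0291%), 0 and 0 did. At an unadjusted p under 0.05, 5 members passed in IM females, against 14.3% of all probes, and 1 for the difference between the sexes, against 1.21%. The estimate of spread in these tests included the OM fish whose values chose the members. Member counts below the share of all probes are therefore not read as a result. The 4 calls in IM females became 1 without low IM female 2, 2 without low IM female 5 and 7 without low IM female 3, and 8 without the 4 dim arrays. With 2 high and 3 low fish the comparison in IM males was less precise than that in IM females. The difference between the sexes, which combines both, was less precise still. For Ssa#GRASP209730833 the SE was 0.99 in IM females, 1.34 in IM males and 1.67 for the difference.

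The member with the smallest p in IM females was Ssa#GRASP209735137, outside the block. Its log2 signal was -0.39, -1.24, 0.15 and -0.96 in high IM females and -3.83, -2.37, -3.72, -2.39 and -2.22 in low IM females. All high IM females lay above all low IM females, with a log2 fold change of 2.30 (SE 0.73, limma adjusted p = 0.171). The probe was picked for its small p, and the share of all ranked probes without overlap in IM females is not given here. Nothing is therefore read from the lack of overlap. In high IM males it was -0.92 and -0.91 and in low IM males -2.32, -0.28 and -1.75. In OM females the direction was the reverse, with -3.45, -3.55 and -3.04 at the high level, against -4.13, -1.61, -1.76, -4.52, -0.48 and 0.47 at the low level, with overlap. The other probes past the study's criteria in IM females were Ssa#S35531339, with a log2 fold change of 1.42 (SE 0.61), Ssa#S30276660, with -4.00 (SE 1.72), and Ssa#GRASP223672662, with -5.56 (SE 2.51), whose limma adjusted p were 0.288, 0.288 and 0.318. Ssa#S30276660 passed the filter at its limit of 25 arrays, being well above background in 2 of 4 high and 5 of 5 low IM females, so its fall there is not independent of the filter. Ssa#GRASP223672662 passed with 30 arrays, among them 3 of 4 high and 5 of 5 low IM females.

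The smallest p for the difference between the sexes was that of Ssa#EL697755, with an interaction of -1.18 (SE 0.58, limma adjusted p = 1.00). Its log2 signal was -2.12, -1.28, -1.51 and -1.18 in high IM females and -0.28, -0.33, -1.17, -0.27 and -1.80 in low IM females. In high IM males it was -1.62 and -0.87, and in low IM males -1.26, -1.75 and -2.03. The groups overlapped in both sexes. In IM males the member with the smallest p was Ssa#GRASP209738229, with a log2 fold change of 0.64 (SE 0.33, limma adjusted p = 0.894), from 0.93 and 1.56 in high and 0.93, 0.92 and -0.02 in low fish.

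**Figure D5:**
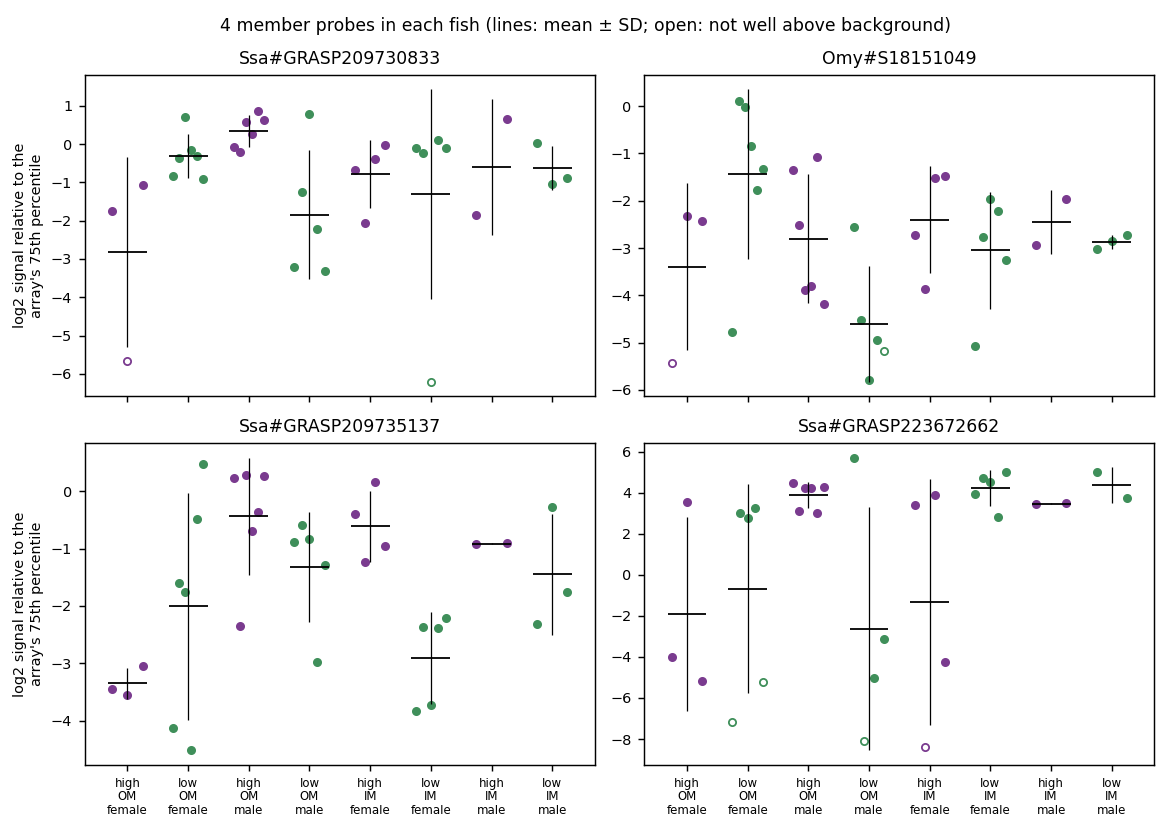
The vertical axis is the log2 signal, with the array's 75th percentile at 0, of 4 members in each fish, by group, purple for the high and green for the low level. Lines are the mean and the SD, and open points were not well above the background. The single low points of high OM female 4 and low IM female 3 are visible for Ssa#GRASP209730833, and Ssa#GRASP223672662 takes either a high or a low value.

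A pair of members took either a high or a low value, as was seen when the values were examined. Ssa#GRASP223672662 had the largest rise of all members in OM males, 6.52. Over 31 fish with a value for both probes its log2 signal was between -8.38 and -3.12 in 9 fish and between 2.78 and 5.69 in 22. Ssa#S30276660 was between -8.57 and -5.57 in the same 9 fish and between -2.74 and 0.36 in the other 22. The 9 fish were 2 of 3 high OM females, 2 of 5 low OM females, 0 of 6 high OM males, 3 of 4 low OM males, 2 of 4 high IM females, 0 of 5 low IM females, and none of the 2 high and 2 low IM males. The means of these probes in a group therefore followed the number of such fish in it.

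A further set of 4 members, Ssa#DY726242, Ssa#TC113038, Omy#S15318530 and Ssa#S18871821, also picked after their values were seen, was high together. Their mean deviation was between 2.61 and 4.02 in 8 fish and between -2.10 and 1.43 in the other 26. The 8 fish were 0 of 3 high OM females, 1 of 6 low OM females, 4 of 6 high OM males, 1 of 5 low OM males, 1 of 4 high IM females, 1 of 5 low IM females and none of the IM males. Pearson r between the probes over the 34 fish ran from 0.867 to 0.976. Their differences in OM males were between 1.97 and 2.55 and in OM females between -1.06 and -0.81.

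The members also varied together among fish of one group. With each group's mean removed, the mean Pearson r over the 4950 pairs of members was 0.313 in the 14 IM fish, against 0.00658 over all pairs of ranked probes. In these fish it was 0.422 among the members in the block and 0.264 among those outside it. The mean r over all probes in the block, or over all outside it, was not computed, so these values have no like background. In the 20 OM fish the mean r over the pairs of members was 0.340, against 0.00998, but the values of these fish chose the members, so nothing is read from it. In IM fish 68 members had an r above 0.5 with the mean of the others, against 11.4% of the other probes with the members' mean, and 10 members had an r below 0. The members share arrays and therefore share whatever an array does to its spots, as all probes do. The cause of the higher r among the members was not tested. Without low IM female 3, where 22 members were not well above the background, the mean r in IM fish was 0.236 and 58 members were above 0.5, against 5.94% of the other probes. Without low IM male 5 as well, another dim array, the mean r was 0.271 and 66 members were above 0.5, against 7.51%. Without low IM male 2, which had the smaller dark centre, the mean r was 0.344.

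Outside the list, the probes whose residuals in the 14 IM fish correlated best with the members' mean were Ssa#TC87492 with r = 0.949, Ssa#GRASP221220735 with 0.949 and Ssa#S35546405 with 0.947. In OM females their differences were -1.15, -2.09 and -1.93. In OM males they were -0.22, 0.10 and 0.44, so these probes fell in females like members and missed the list through males.

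The members were of ordinary brightness. Their mean signal over the 34 arrays had a median percentile of 48.3 among the ranked probes and ran from 0.894 to 97.7. The brightest was Ssa#S50686573 with a mean log2 signal of 5.08, followed by Ssa#S31981946 with 4.78, and the dimmest was Ssa#S35679930 with -4.59. The members were less often above the background throughout than other probes, with 50 of 100 well above it on all 34 arrays, against 73.8% of all ranked probes. This count rests on the same signals as the rule.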

How the data were processed

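Midgut RNA of 34 fish was hybridised to one-colour (Cy3) Agilent arrays. The scanner files deposited by the authors give each spot's intensity after background subtraction by Feature Extraction 12.0.1.1, with no scaling between arrays. A second deposited table, of intensities the authors had scaled per array, served as an alternative. The log2 of the processed signal minus the array's 75th percentile was computed. Control spots were left out and 2160 outlier spots set to missing; 0 spots were saturated. Groups came from the labels. The members and the gene lists were chosen with earlier results of these data known, and the lists could not be used, as 0 of 14841 identifiers matched. Probes were named by rank, by the smallest p in each IM comparison, and by brightness.

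A model of the 8 group means was fitted to 10295 probes with limma 3.58.1 (R 4.3.3), with p-values adjusted over all of them. The fit was also run on simulated data with independent noise for each probe. The simulation had no dark centres, dim arrays or correlated probes, so it cannot show how the test behaves under these. A log2 fold change beyond 0.81 with p under 0.05 are the study's criteria; its methods name no test for the arrays. Alternatives were normexp (offset 50), quantile normalization, the authors' values, other filters, slide, scan day and fish number as blocks, and each array left out. The grid correction, the removal of dim or dark arrays and the masking of dim spots were chosen after seeing the data. The number of arrays and the signal on dim arrays limit precision. Fish number pairing is given with the alternatives.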

Additional observations from a re-analysis of the deposited data

Results flagged for a closer look

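In 4 instances a fish stood far from the rest of its group, out of 35 combinations of a group and a measure that were screened. Groups had 4 to 6 fish, and the same fish recurred under several measures. Chance gives about 1 in 20 for independent sets. These sets shared fish, and some measures were chosen on these data, so the 4 are not set against that rate. The median deviation of the members was 1.12 in low OM male 4, with the nearest fish of that group at -0.82. The first-ranked probe Ssa#GRASP209730833 had -6.20 in low IM female 3, with the nearest at -0.24. Ssa#GRASP209735137 had -2.35 in high OM male 2, with the nearest at -0.69. The signal of the central block minus the rest of the array was -0.31 on the array of low OM female 6, with the nearest at -0.024. The dark centres of low OM males 2, 5 and 6 did not stand out in this screen, since they made up most of their group.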

How the results depend on the processing

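No member passed an adjusted limma p of 0.05 in any IM comparison under any alternative run (0 in each). At the study's criteria, the 4 members called in IM females became 1 when probes had to be well above the background on all 34 arrays, where 50 members were tested, and 8 without the 4 arrays with a 75th percentile under 100. The 0 called in IM males became 1 with the slide as a fixed block and 1 with IM arrays only. The 1 called for the difference between the sexes became 0 under normexp, quantile normalization, the authors' values, the filter at 6 arrays, no filter, the slide as a fixed block, the scan day, the removal of the 4 dim arrays and the grid correction, and 2 with IM arrays only and with dim spots missing. The cause was not tested. With each array left out in turn, the counts ran from 1 to 7, from 0 to 1 and from 0 to 3. The median difference ran from -1.91 to -0.77 in OM females, from 1.06 to 1.70 in OM males, from -0.42 to 0.18 in IM females and from -0.52 to 0.43 in IM males. It was 0.43 without high IM male 1. All medians of OM fish kept their direction, but the rule chose the members by that direction in the same fish, so nothing is read from it. Of the 100 members the rule chose 51 again under normexp, 58 under quantile normalization and 43 without the 4 dim arrays. With the strictest filter it chose 50, but only 50 members passed that filter, so no eligible member was lost. Without low OM males 2, 5 and 6 it chose 53, and 31 without these and high OM female 4. With 1 OM array left out it chose between 52 and 95. It chose 75 to 92 under the authors' values, the grid correction, dim spots missing, the filter at 6 arrays and no filter.

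The fish number is shared between groups, and the numbers do not mark a common tank or family in the labels. With the fish number as a replicate block, 4 members were called in IM females, 0 in IM males and 0 for the difference, against 4, 0 and 1 without the block. Deviations of same-numbered high and low fish correlated at -0.23 to 0.10 over 5 pairs in IM and at -0.14 to 0.34 over 7 pairs in OM. Correlations of differently numbered fish are not given here, so these values cannot show whether the numbers mark pairs. The numbers were not taken as pairs, since the labels do not mark them as such. Dim spots and the number of fish limit what can be seen: the comparison in IM males had 2 high and 3 low fish.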
